A study of Mus musculus with 6 samples.

Results

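The Hox genes are the homeobox transcription factors of the Hoxa, Hoxb, Hoxc and Hoxd clusters. They were taken as every gene whose annotated symbol was Hoxa, Hoxb, Hoxc or Hoxd followed by a number. In this way 38 Hox genes had a probe with that gene as its single symbol, among 19057 genes so named on the array. The members were 10 Hoxa, 10 Hoxb, 9 Hoxc and 9 Hoxd genes, read by 57 probes. A gene entered the statistical test where a probe was above background on both arrays of at least 1 group. By this rule 16 Hox genes of 10913 genes in all were tested and 22 Hox genes were not.

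RNA of OG2 mice, a strain with a green fluorescent reporter driven by Pou5f1 sequences, was hybridised to 6 Illumina bead arrays in 3 groups of 2. The HFGSC group held germline stem cells that the labels describe as derived from hair follicles of dorsal skin, from mice of 4 months. The GSC group held germline stem cells of the testis, from mice of 3 months. The HF group held cells that the labels describe as hair follicle cells of dorsal skin, from mice of 2 months. The series was designed to compare each kind of stem cell with HF, and HFGSC was compared with GSC here as well. Cell type, source tissue and age differ together, so their parts in a difference cannot be told apart. Nothing in the labels used here says whether the 2 samples of a group came from separate mice or cultures, whether animals were pooled, or which feeder cells or passages were used, so the p-values cover the spread of these samples, which may be technical. In bulk RNA, fewer cells of a type and less RNA per cell cannot be told apart.

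Hox proteins give cells their position along the head-to-tail axis of the embryo. The genes lie in their clusters in the order of that axis, from low paralogue numbers, used towards the head, to high numbers, used towards the tail, and they are known to be opened in that order. They bind DNA with TALE partner proteins of the Pbx, Meis and Pknox families. Polycomb complexes hold them silent, Trithorax and MLL complexes keep them active, and retinoic acid and Cdx proteins turn them on in the embryo. In adult skin, dermal fibroblasts are known to keep a Hox pattern that records the body site they came from, and Hoxc13 acts in the hair shaft.

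Promoters of neighbours in the Hoxa cluster and of the one Hoxd gene detected on both arrays of a group are shown because Hoxa5 and Hoxa7 were above background in HFGSC and GSC while Hoxa6, which lies between them, was not on any array. The RefSeq promoter table, on GRCm38.p6, matched 22 of the 38 members with 24 promoters of 300 bases, from 250 before to 50 after the start of the gene. Each sequence is in lower case, 5′ to 3′ on the strand of the gene, and capitals mark matches of AGGTCA, the half-site of retinoic acid receptors, and of TTTATG, a Cdx motif. TGATTNAT, a Hox-Pbx motif, and TGACAG, a Meis motif, were also searched. Both strands were read.
Hoxa5 promoter, chr6:52204538-52204837, minus strand: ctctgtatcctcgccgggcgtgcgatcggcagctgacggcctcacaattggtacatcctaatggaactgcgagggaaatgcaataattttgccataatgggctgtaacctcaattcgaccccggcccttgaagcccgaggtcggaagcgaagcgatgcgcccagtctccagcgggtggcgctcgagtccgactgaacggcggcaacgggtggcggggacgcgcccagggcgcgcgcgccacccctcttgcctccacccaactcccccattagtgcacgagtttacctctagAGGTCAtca
Hoxa6 promoter, chr6:52208623-52208922, minus strand: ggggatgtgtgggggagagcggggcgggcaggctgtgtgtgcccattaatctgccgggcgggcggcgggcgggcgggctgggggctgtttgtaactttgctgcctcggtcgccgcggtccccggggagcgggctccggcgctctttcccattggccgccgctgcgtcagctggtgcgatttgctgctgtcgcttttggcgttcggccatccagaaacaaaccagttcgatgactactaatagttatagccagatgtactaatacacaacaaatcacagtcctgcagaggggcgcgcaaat
Hoxa7 promoter, chr6:52218524-52218823, minus strand: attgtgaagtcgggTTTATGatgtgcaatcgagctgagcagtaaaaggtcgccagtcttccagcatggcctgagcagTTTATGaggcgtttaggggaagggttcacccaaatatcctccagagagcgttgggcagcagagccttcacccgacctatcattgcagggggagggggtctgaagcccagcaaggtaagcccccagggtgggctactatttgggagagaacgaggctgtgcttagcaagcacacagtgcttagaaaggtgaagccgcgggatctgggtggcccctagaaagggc
Hoxd8 promoter, chr2:74704365-74704664, plus strand: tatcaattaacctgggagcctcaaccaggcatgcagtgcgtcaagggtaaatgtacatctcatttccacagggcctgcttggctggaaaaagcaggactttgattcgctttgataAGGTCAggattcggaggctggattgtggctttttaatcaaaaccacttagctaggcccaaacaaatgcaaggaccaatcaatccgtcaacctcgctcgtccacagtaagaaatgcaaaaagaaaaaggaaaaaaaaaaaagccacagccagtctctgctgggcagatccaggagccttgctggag

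The Hoxa5 promoter held 29 CpG dinucleotides and 1 AGGTCA, and the Hoxa6 promoter held 26 CpG dinucleotides and none of the 4 motifs. The Hoxa7 promoter held 9 CpG dinucleotides and 2 matches of TTTATG, and the Hoxd8 promoter held 6 CpG dinucleotides and 1 AGGTCA. The median was 14.5 CpG dinucleotides over the 24 Hox promoters, against 7 over all 32851 promoters of the table. AGGTCA was in 29.2% of the Hox promoters against 16.3% of all, and TTTATG in 20.8% against 11.9%. TGATTNAT was in 8.33% against 3.22%, and TGACAG in 8.33% against 19.2%. A match is a run of letters and not a bound site, and no binding was measured.

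**Figure D1:**
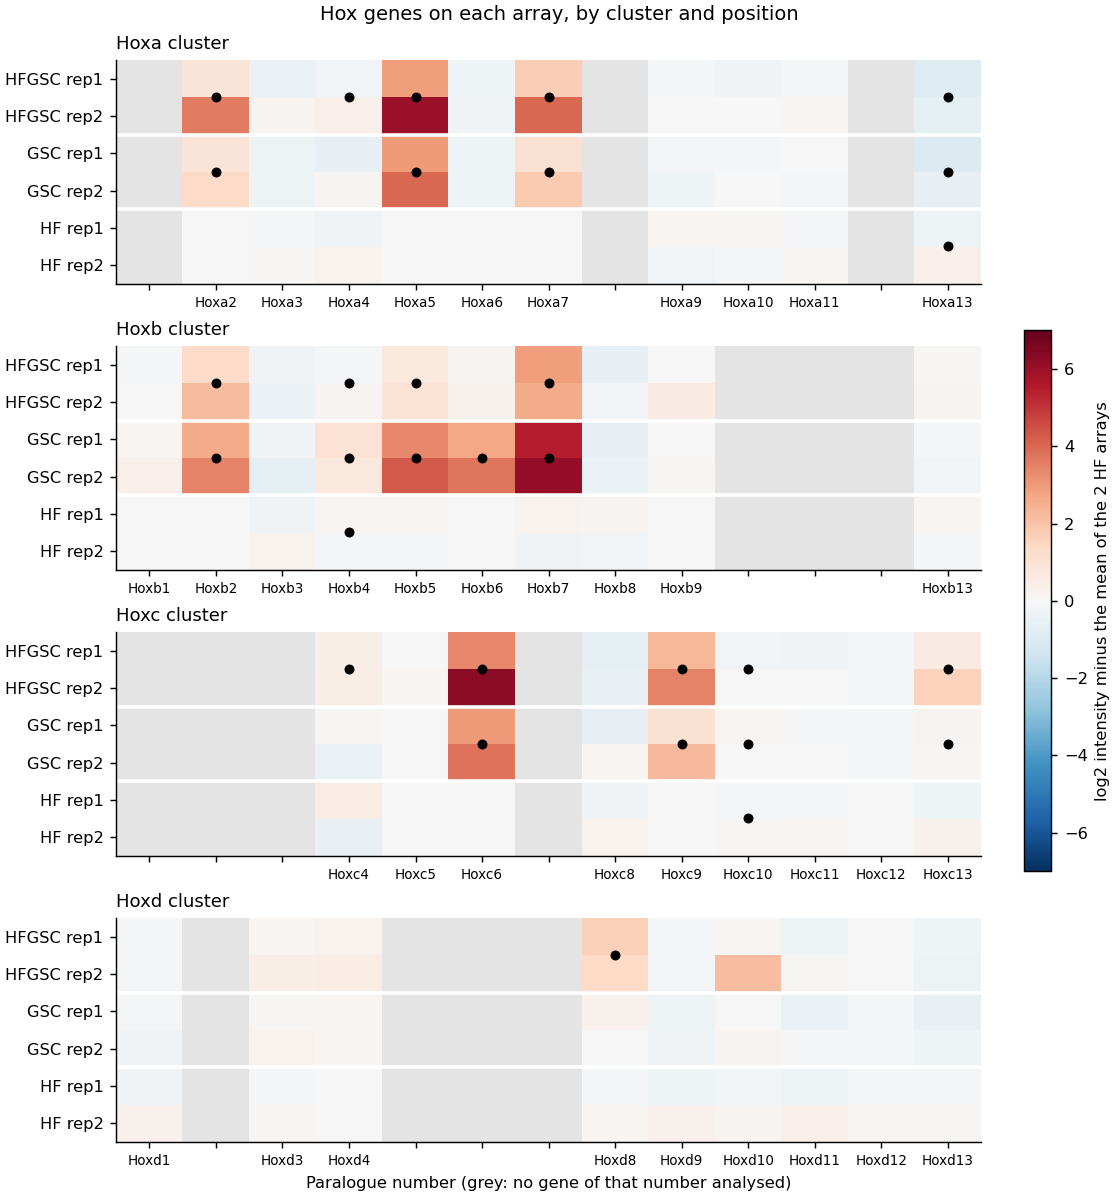
Each row is 1 array and each column 1 Hox gene in paralogue order, with 1 panel per cluster. Colour is the log2 normalized intensity minus the mean of the 2 HF arrays, a black dot marks a gene detected on both arrays of a group, and grey marks numbers with no gene analysed. Dots lie on 15 genes in HFGSC, 13 in GSC and 3 in HF, and the strongest reds are at Hoxa5 and Hoxc6 on HFGSC replicate 2 and at Hoxb7 on GSC replicate 2.

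In HFGSC, 15 of 38 Hox genes (39.5%) had a probe detected on both arrays, meaning a detection p-value under 0.05, the chance of such a signal from background. They were Hoxa2, Hoxa4, Hoxa5, Hoxa7 and Hoxa13, Hoxb2, Hoxb4, Hoxb5 and Hoxb7, Hoxc4, Hoxc6, Hoxc9, Hoxc10 and Hoxc13, and Hoxd8. In GSC, 13 genes (34.2%) were detected on both arrays: 4 Hoxa genes, 5 Hoxb genes, 4 Hoxc genes and no Hoxd gene. The GSC set lacked Hoxa4, Hoxc4 and Hoxd8 and had Hoxb6 in addition. In HF, 3 genes (7.89%) were detected on both arrays, namely Hoxa13, Hoxb4 and Hoxc10, and at the stricter detection p of 0.01 only Hoxa13 was, 1 gene. Of all 19057 genes, 52.6% were detected on both arrays in HFGSC, 52.1% in GSC and 44.1% in HF. The lowest detected log2 signal was 5.88 and 5.97 on the HFGSC arrays, 5.89 and 5.99 on the GSC arrays, and 6.39 and 6.50 on the HF arrays. A low Hox signal was therefore harder to detect in HF.

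The 22 Hox genes outside the test, read by 36 probes, lay between 4.75 and 7.25 on the log2 scale in HFGSC, between 4.82 and 6.21 in GSC, and between 4.83 and 6.49 in HF. They include Hoxa9, Hoxa10 and Hoxa11, Hoxb8, Hoxb9 and Hoxb13, Hoxc8, Hoxc11 and Hoxc12, and every Hoxd gene apart from Hoxd8. The others were Hoxa3, Hoxa6, Hoxb1, Hoxb3 and Hoxc5. Detection on a single array occurred for 2 of them in HFGSC (Hoxd10 and Hoxd11, both on replicate 2) and 2 in GSC (Hoxc8 and Hoxd11), and for none in HF. Hoxd10, a gene of hindlimb motor neurons, read 5.18 and 7.25 in HFGSC, 5.11 and 5.29 in GSC, and 4.91 and 5.29 in HF. It was therefore above the other arrays on HFGSC replicate 2 alone. In a fit of all genes without the filter, none of the 22 passed at an adjusted p under 0.05. Across the 22 genes, Hoxd4 in HFGSC against HF came closest, with a log2 difference of 0.39 and an adjusted p of 0.0508 by limma.

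Set against HF, HFGSC had higher levels of Hoxa5 and Hoxa7, Hoxb2 and Hoxb7, Hoxc6 and Hoxc9, and Hoxd8. These 7 of 16 tested Hox genes passed limma's moderated test at a Benjamini-Hochberg adjusted p under 0.05, and none was lower. Of all tested genes 26.5% passed in either direction, 17.2% as higher and 9.37% as lower. The median log2 difference was 1.31 over the 16 Hox genes and 0.05 over all tested genes. The arrays did not overlap for 11 Hox genes as higher and 1 as lower. Of all tested genes, 34.6% were higher and 30.4% lower without overlap. Because 13 of the 16 were tested although not detected on both HF arrays, they entered through HFGSC or GSC, so these counts and medians lean upwards by construction. At an unadjusted p under 0.05, 9 Hox genes were higher and 0 lower. Where neither array of the dimmer group detected a probe, a fold is given as "at least": the mean of the brighter group over a floor for the dimmer one, which on each array is the faintest signal called detected or, if greater, the value of the probe.

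Hoxa2, Hoxa5 and Hoxa7 differed widely between the 2 HFGSC arrays. Hoxa5, which patterns the neck and upper thorax and is needed for the lung, read 7.92 and 11.07 in HFGSC, 7.98 and 9.02 in GSC, and 5.05 and 5.00 in HF. All HFGSC and GSC arrays lay above both HF arrays, and the HFGSC arrays lay on either side of the GSC mean. The difference from HF was 4.47 on the log2 scale in HFGSC (SE 0.97, adjusted p = 0.0137 by limma, at least 8.27-fold) and 3.48 in GSC (SE 0.97, adjusted p = 0.0299, at least 4.16-fold). Hoxa7, a trunk gene, read 6.75 and 9.05 in HFGSC, 6.07 and 6.85 in GSC, and 5.04 and 4.98 in HF. It rose in HFGSC against HF by 2.89 (SE 0.70, adjusted p = 0.0217, at least 2.74-fold), while the GSC difference was 1.45 (95% interval -0.19 to 3.10, adjusted p = 0.158). Hoxa2, which sets the identity of the second branchial arch, read 6.48 and 9.25 in HFGSC, 6.50 and 6.95 in GSC, and 5.56 and 5.62 in HF. Groups did not overlap between HFGSC and HF, but its difference of 2.27 missed the threshold (95% interval 0.39 to 4.15, adjusted p = 0.0771), as did that of 1.13 in GSC (95% interval -0.75 to 3.01, adjusted p = 0.326). Hoxa5 and Hoxa7 in HFGSC against HF missed the threshold without HF replicate 1 (adjusted p = 0.0541 and 0.0720) and without HF replicate 2 (0.0537 and 0.0707), over ranges of 0.00162 to 0.0541 and 0.00278 to 0.0720 in all 15 alternatives. Without HFGSC replicate 2 their differences were 2.90 and 1.74, and both still passed.

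The remaining tested Hoxa genes were near the detection limit or high in every group. Hoxa4 read 5.89 and 6.44 in HFGSC, 5.53 and 6.30 in GSC, and 5.82 and 6.36 in HF, with overlapping groups. Hoxa13, a gene of digits and genital outgrowth, read 7.11 and 7.31 in HFGSC, 7.06 and 7.45 in GSC, and 7.62 and 8.37 in HF. Both stem cell groups lay below HF in this probe, by -0.79 in HFGSC (95% interval -1.91 to 0.34, adjusted p = 0.268 by limma) and -0.74 in GSC (95% interval -1.87 to 0.39, adjusted p = 0.284), which did not pass. The other 2 probes of Hoxa13 were not detected on any array, so the detected signal rests on 1 of 3 probes.

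**Figure D2:**
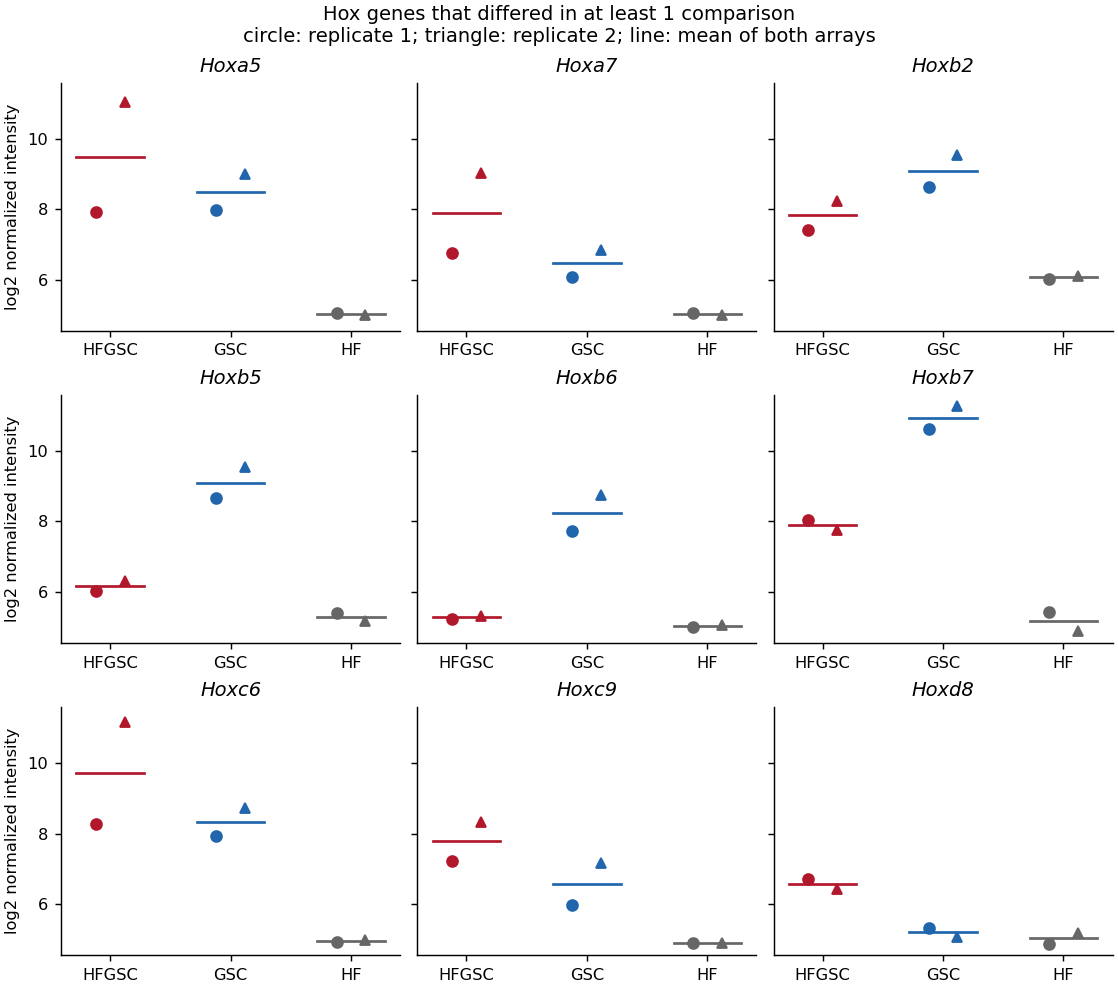
Log2 normalized intensity of the 9 Hox genes that passed in at least 1 comparison, with 1 circle (replicate 1) and 1 triangle (replicate 2) per group and a line at the mean of both arrays. Hoxa5, Hoxa7 and Hoxc6 have their highest point on HFGSC replicate 2, and Hoxb2, Hoxb5, Hoxb6 and Hoxb7 have theirs on GSC replicate 2.

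The 5 tested Hoxb genes had their highest means in GSC. Set against HF, GSC had higher levels of 7 of the 16 tested Hox genes, Hoxa5, Hoxb2, Hoxb5, Hoxb6, Hoxb7, Hoxc6 and Hoxc9, and lower levels of none. Of all tested genes 32.1% passed in either direction, 19.5% as higher and 12.6% as lower. At an unadjusted p under 0.05 the Hox counts were 7 higher and 0 lower. The median log2 difference was 1.29 over the 16 Hox genes and 0.07 over all tested genes. The arrays did not overlap for 10 Hox genes as higher and 1 as lower. Of all tested genes, 36% were higher and 31.4% lower without overlap. Here too, 13 of the 16 were tested although not detected on both HF arrays. The GSC counts and median therefore also lean upwards by construction. HFGSC and GSC were set against the same HF arrays, so the counts of the 2 comparisons are not separate evidence.

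Hoxb7, a trunk gene also used in the developing kidney duct, read 8.05 and 7.77 in HFGSC, 10.64 and 11.28 in GSC, and 5.41 and 4.89 in HF. The 3 groups did not overlap. Its difference from HF was 5.81 in GSC (SE 0.51, adjusted p = 0.000402 by limma, at least 22.8-fold) and 2.76 in HFGSC (SE 0.51, adjusted p = 0.00768, at least 2.76-fold). Hoxb6, a gene of the flank mesoderm, read 5.22 and 5.31 in HFGSC, 7.72 and 8.75 in GSC, and 5.00 and 5.04 in HF. It was detected in GSC only, where it rose by 3.22 against HF (SE 0.39, adjusted p = 0.00118, at least 3.46-fold). In HFGSC and HF it was not well above background on any array, so no fold is given between them. Hoxb5, a gene of the gut nervous system and of blood stem cells, read 6.01 and 6.29 in HFGSC, 8.66 and 9.55 in GSC, and 5.40 and 5.16 in HF. It rose in GSC against HF by 3.83 (SE 0.44, adjusted p = 0.000919, at least 6.32-fold), and its HFGSC difference was 0.87 (95% interval -0.15 to 1.90, adjusted p = 0.186). Hoxb7 in HFGSC against HF missed the threshold without HF replicate 2 (adjusted p = 0.0800, range 0.00135 to 0.0800 over 15 alternatives).

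Hoxb2, which acts in the hindbrain, read 7.42 and 8.25 in HFGSC, 8.64 and 9.54 in GSC, and 6.02 and 6.10 in HF. The groups did not overlap, with GSC above HFGSC and HFGSC above HF. It rose by 3.02 in GSC against HF (SE 0.54, adjusted p = 0.00598 by limma, at least 6.23-fold) and by 1.77 in HFGSC against HF (SE 0.54, adjusted p = 0.0491, at least 2.62-fold). The HFGSC call was lost in 8 of 15 alternatives, with adjusted p from 0.00670 to 0.219. These included leaving out HFGSC replicate 1 (0.0566), HFGSC replicate 2 (0.154), GSC replicate 1 (0.0511), HF replicate 1 (0.219) or HF replicate 2 (0.201). Hoxb4, known for the growth of blood stem cells, read 7.09 and 7.42 in HFGSC, 8.24 and 7.98 in GSC, and 7.36 and 7.14 in HF. Both GSC arrays were above all others, and the GSC difference of 0.86 from HF did not pass (95% interval -0.18 to 1.91, adjusted p = 0.185). Hoxb4, Hoxa13 and Hoxc10 were the members detected on all 6 arrays.

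Among the Hoxc genes, Hoxc6 and Hoxc9 were higher in both stem cell groups. Hoxc6, a thoracic gene, read 8.28 and 11.17 in HFGSC, 7.93 and 8.73 in GSC, and 4.90 and 4.96 in HF. Every stem cell array was above both HF arrays. The difference from HF was 4.79 in HFGSC (SE 0.89, adjusted p = 0.00768 by limma, at least 9.67-fold) and 3.40 in GSC (SE 0.89, adjusted p = 0.0243, at least 3.69-fold). Hoxc9, which specifies thoracic motor neurons, read 7.21 and 8.34 in HFGSC, 5.97 and 7.15 in GSC, and 4.89 and 4.87 in HF. It rose by 2.89 in HFGSC against HF (SE 0.53, adjusted p = 0.00691, at least 2.51-fold) and by 1.67 in GSC against HF (SE 0.53, adjusted p = 0.0455, at least 1.08-fold). Hoxc8, which lies between them, was detected on 1 array only, GSC replicate 2, at 6.21.

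Hoxc6 and Hoxc9 in HFGSC against HF passed under all 15 alternatives, and without HFGSC replicate 2 their log2 differences were 3.35 and 2.33. In GSC against HF, the Hoxa5, Hoxc6 and Hoxc9 calls were lost without GSC replicate 2 (adjusted p = 0.142, 0.119 and 0.197 by limma), without HF replicate 1 (0.0981, 0.0928 and 0.148) and without HF replicate 2 (0.0958, 0.0825 and 0.143). Those of Hoxa5 and Hoxc6 were also lost without GSC replicate 1 (0.0711 and 0.0681). Over 15 alternatives the ranges of the GSC calls were 0.00171 to 0.142 for Hoxa5, 0.00124 to 0.119 for Hoxc6 and 0.00821 to 0.197 for Hoxc9, whose log2 difference was 1.08 without GSC replicate 2. The Hoxa5 and Hoxc6 calls were also lost with the authors' values and with an offset of 50, in 6 of 15 alternatives each. That of Hoxc9 was also lost with median scaling, an offset of 50, no filter and no variance trend, in 7 of 15. The other GSC calls, Hoxb2, Hoxb5, Hoxb6 and Hoxb7, passed under all 15.

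Of the other tested Hoxc genes, Hoxc13, the hair shaft gene, read 6.51 and 7.53 in HFGSC, 6.13 and 6.06 in GSC, and 5.62 and 6.25 in HF. Its HFGSC arrays were above all others, but the difference of 1.09 from HF did not pass (95% interval 0.07 to 2.10, adjusted p = 0.109 by limma). It was not detected on either HF array, on which the keratins Krt5, Krt14 and Krt15 were not detected either. Hoxc4 read 6.43 and 6.49 in HFGSC, 6.11 and 5.56 in GSC, and 6.54 and 5.54 in HF, with overlap between HFGSC and HF. Hoxc10, a lumbar gene, read 6.47 and 6.59 in HFGSC, 6.78 and 6.67 in GSC, and 6.54 and 6.74 in HF. Its differences from HF were -0.11 in HFGSC (95% interval -0.91 to 0.69) and 0.08 in GSC (95% interval -0.72 to 0.89).

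Hoxd8, a trunk gene, was the only Hoxd gene detected on both arrays of a group. It read 6.69 and 6.41 in HFGSC, 5.32 and 5.04 in GSC, and 4.86 and 5.16 in HF. Detection was confined to the 2 HFGSC arrays. It rose in HFGSC against HF by 1.54 (SE 0.26, adjusted p = 0.00505 by limma, at least 1.08-fold), while GSC and HF were both below background. The HFGSC call passed under all 14 alternatives that gave a value. At the stricter detection p of 0.01 the gene left the test.

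**Figure D3:**
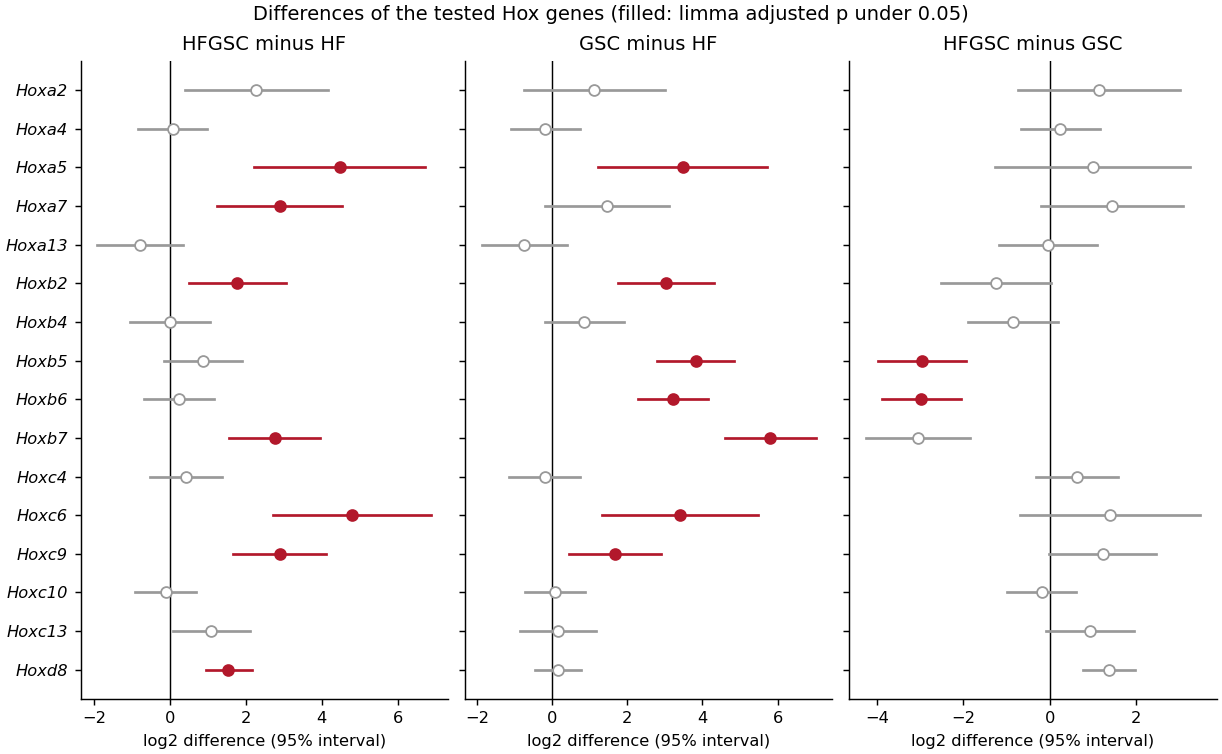
Log2 differences of the 16 tested Hox genes with 95% intervals, for HFGSC minus HF, GSC minus HF and HFGSC minus GSC. Filled red points passed at an adjusted p under 0.05 and open grey points did not. The filled points lie right of 0 in the first 2 panels, and Hoxb5 and Hoxb6 lie left of 0 in the third.

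HFGSC differed from GSC at the middle of the Hoxb cluster. Hoxb5 and Hoxb6, which lie side by side, were lower in HFGSC, 2 of 16 tested Hox genes, and none was higher. Of all tested genes 0.44% passed in either direction, 0.174% as higher and 0.266% as lower. At an unadjusted p under 0.05, 3 Hox genes were lower and 1 was higher. The median log2 difference was 0.44 over the 16 Hox genes and -0.01 over all tested genes. The arrays did not overlap for 4 Hox genes as higher and 6 as lower. Of all tested genes, 14.7% were higher and 17.7% lower without overlap. Hoxb6 entered the test through GSC alone, where it is high, and Hoxa4, Hoxc4 and Hoxd8 entered through HFGSC alone. These counts and this median therefore rest in part on the filter.

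Hoxb5 averaged 6.15 ± 0.20 in HFGSC and 9.11 ± 0.63 in GSC (SD, n = 2 each), a difference of -2.96 (SE 0.44, adjusted p = 0.0467 by limma, 7.76-fold lower). Hoxb6 averaged 5.27 ± 0.06 in HFGSC and 8.24 ± 0.73 in GSC, a difference of -2.97 (SE 0.39, adjusted p = 0.0305, at least 4.97-fold lower). Hoxb7, the next gene of the cluster, averaged 7.91 ± 0.19 in HFGSC and 10.96 ± 0.45 in GSC. Its difference of -3.05 (8.27-fold, 95% interval -4.25 to -1.85) did not pass over all genes (adjusted p = 0.0711), although the groups did not overlap. It passed under 2 of 15 alternatives (range of the adjusted p 0.0140 to 0.304), of which one averaged the 2 probes of the gene (0.0409). Hoxb2 was at -1.25 (95% interval -2.52 to 0.02, adjusted p = 0.693) and Hoxb4 at -0.86 (95% interval -1.90 to 0.19, adjusted p = 0.784), with both HFGSC arrays below both GSC arrays for each gene. These are the 5 Hoxb genes tested. Of all tested genes, 17.7% were also lower in HFGSC than in GSC without overlap.

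The Hoxa, Hoxc and Hoxd genes gave no call between HFGSC and GSC. Hoxd8 was 1.37 higher in HFGSC (95% interval 0.77 to 1.98, at least 1.53-fold), with an adjusted p of 0.106 by limma. Differences were 0.99 for Hoxa5 (95% interval -1.26 to 3.25), 1.44 for Hoxa7 (-0.20 to 3.09), 1.14 for Hoxa2 (-0.74 to 3.02), 1.39 for Hoxc6 (-0.70 to 3.47) and 1.22 for Hoxc9 (-0.01 to 2.45). Of these 5, the groups overlapped for all but Hoxc9. Such intervals hold differences of several fold in HFGSC, so they do not show equal levels. The Hoxb5 call was lost in 11 of 15 alternatives (adjusted p from 0.0118 to 0.183), among them leaving out any 1 of the 6 arrays (0.0666 to 0.167). That of Hoxb6 was lost in 8 (0.00903 to 0.143), among them leaving out HFGSC replicate 1 (0.0755), HFGSC replicate 2 (0.143), GSC replicate 2 (0.0550) or HF replicate 1 (0.0568). In all alternatives both genes stayed lower in HFGSC, between -3.40 and -1.88 for Hoxb5 and between -3.49 and -1.65 for Hoxb6.

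Markers of testis somatic cells were read beside these Hoxb values. Of 6 Sertoli cell markers on the array, 3 were detected on both arrays of HFGSC, 3 in GSC and 2 in HF, and Amh and Gata4 were not detected on any array. Wt1 and Clu of the list had no probe with that gene as its single symbol. The summed normalized intensity of the 6 markers was 6965 and 13399 in HFGSC, 6895 and 8421 in GSC, and 5362 and 5519 in HF. Sox9 makes up most of the HFGSC sums. The mean log2 intensity of the same markers was lower in HFGSC, at 7.3 and 7.98, than in GSC, at 8.15 and 8.37. In HF it was 7.24 and 7.29. Trf, which encodes transferrin and which Sertoli cells make, read 6.77 and 7.04 in HFGSC, 11.52 and 11.73 in GSC, and 5.54 and 5.72 in HF, and was the one Sertoli marker called lower in HFGSC than in GSC. Sox9 and Inha of the same list had higher means in HFGSC than in GSC, and Rhox5 had a lower one. Rhox5 read 8.43 and 9.48 in HFGSC, 10.1 and 10.59 in GSC, and 11.28 and 11.13 in HF. Its difference between HFGSC and GSC of -1.39 did not pass (adjusted p = 0.537 by limma), although the arrays did not overlap. Sox9, a Sertoli cell gene that is also in the follicle bulge list, read 12.64 and 13.59 in HFGSC, 11.42 and 11.71 in GSC, and 11.41 and 11.61 in HF, and its difference between HFGSC and GSC of 1.55 did not pass (adjusted p = 0.215 by limma). Inha, an inhibin subunit outside the test, read 5.50 and 6.96 in HFGSC, 5.29 and 5.90 in GSC, and 4.95 and 5.05 in HF. Of 6 Leydig and peritubular markers, 1 was detected on both arrays of HFGSC, 3 in GSC and 1 in HF, while Hsd3b1, Star and Myh11 were not detected on any array. Insl3, a Leydig cell hormone, read 5.14 and 7.54 in HFGSC, 8.18 and 8.24 in GSC, and 5.54 and 5.39 in HF. Acta2, the smooth muscle actin of peritubular cells, read 11.36 and 13 in HFGSC, 11 and 11.62 in GSC, and 7.30 and 8.69 in HF. Neither passed between HFGSC and GSC (adjusted p = 0.583 for Insl3 and 0.856 for Acta2 by limma). Cyp11a1 of the same list was detected in GSC alone. It read 5.5 and 5.61 in HFGSC, 6.08 and 6.93 in GSC, and 5.8 and 5.7 in HF. The Cyp11a1 difference between HFGSC and GSC of -0.95 did not pass either (adjusted p = 0.537 by limma). Whether other cells of the testis contribute to the Hoxb levels was not tested.

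The identity of the groups was checked by markers. Of 8 germ cell markers, 7 were detected on both arrays of HFGSC, 7 in GSC and 1 in HF, and of 9 spermatogonial stem cell markers, 9, 9 and 2 were. The basal keratinocyte keratins Krt5 and Krt14, their regulator Trp63 and the bulge keratin Krt15 were not detected on any array, the HF arrays included. The name HF is that of the labels, and the lack of these 4 genes goes against it. Of all 7 basal keratinocyte markers, 3 were detected on both arrays of HFGSC, 3 in GSC and 2 in HF, and of 7 follicle bulge markers, 5, 4 and 4 were. Those detected on both HF arrays were Itga6 and Lamb3 of the first list, and Cd34, Sox9, Nfatc1 and Tcf7l1 of the second. Lamb3, a laminin chain of the epidermal basement membrane, read 5.12 and 5.04 in HFGSC, 5.10 and 5.35 in GSC, and 8.03 and 9.91 in HF. It was lower in HFGSC (-3.89, adjusted p = 0.00309 by limma, at least 8.26-fold) and in GSC (-3.75, adjusted p = 0.00323, at least 8.18-fold). Itgb4 and Col17a1 of the same list went the other way and were not detected in HF. Itgb4 was higher by 3.69 in HFGSC (adjusted p = 0.00269 by limma, at least 9.53-fold) and 3.17 in GSC (0.00454, at least 6.62-fold). Col17a1 was higher by 4.78 in HFGSC (0.000813, at least 13.2-fold) and 4.78 in GSC (0.00076, at least 13.3-fold). The median difference of the 4 tested basal keratinocyte markers was 2.02 in HFGSC and 1.73 in GSC. Of 14 fibroblast and mesenchyme markers, 13 were detected on both arrays of HFGSC, 12 in GSC and 8 in HF, and Lum was not detected on any. Of 7 dermal papilla markers, 3 were detected on both arrays of HFGSC, 3 in GSC and 1 in HF. Sox2, Corin, Lef1 and Vcan of that list were not detected on any array. For 8 neural crest and melanocyte markers the counts were 5, 4 and 2, and for 6 endothelium markers 2, 3 and 2. Of the 6 leukocyte markers, 5 were not detected on any array. The other, Coro1a, was detected on all 6 arrays. It read 9.93 and 9.80 in HFGSC, 10.53 and 10.99 in GSC, and 6.65 and 6.54 in HF. Its differences from HF were 3.27 in HFGSC (adjusted p = 0.00277 by limma) and 4.16 in GSC (adjusted p = 0.000911).

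HFGSC replicate 2 stood apart in some Hox genes. Over all tested genes, HFGSC replicate 1 was nearer to GSC replicate 1 (a root mean square log2 difference of 0.64) than to HFGSC replicate 2 (0.99). The median absolute log2 difference between the 2 arrays of a group was 0.51 in HFGSC, 0.57 in GSC and 0.41 in HF. Differences above 2 occurred in 6.19% of tested genes in HFGSC, 3.22% in GSC and 2.11% in HF. Among the 16 tested Hox genes, 4 exceeded 2 in HFGSC and 0 in GSC and HF. These were Hoxa5 (replicate 2 minus replicate 1 of 3.15), Hoxc6 (2.89), Hoxa2 (2.77) and Hoxa7 (2.30). The Hoxb genes with a call had HFGSC differences of 0.84 for Hoxb2, 0.28 for Hoxb5, 0.09 for Hoxb6 and -0.27 for Hoxb7, of which that of Hoxb2 exceeded the HFGSC median.

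Mesenchymal markers were also higher on HFGSC replicate 2. It exceeded HFGSC replicate 1 for 13 of 13 tested fibroblast and mesenchyme markers, against 52.9% of all tested genes and 14 of the 16 Hox genes. In GSC, replicate 2 was above replicate 1 for 9 of the 13 markers and 61.9% of all genes, and in HF for 9 of the 13 and 58.9%. The summed normalized intensity of the 14 markers was 32498 and 79525 in HFGSC, 28209 and 27248 in GSC, and 52724 and 58233 in HF. Col1a2, a collagen chain, read 6.14 and 8.10 in HFGSC, 5.91 and 5.93 in GSC, and 5.11 and 5.28 in HF. Prrx1, a homeobox gene of limb and skin mesenchyme, read 6.74 and 8.36 in HFGSC, 6.48 and 7.03 in GSC, and 5.84 and 6.01 in HF. Vim, the intermediate filament of mesenchyme, read 10.29 and 12.54 in HFGSC, 10.35 and 10.86 in GSC, and 14.36 and 14.39 in HF. The list was not uniform across groups: against HF, 5 of its 13 tested genes were higher and 1 was lower in HFGSC, and 4 were higher and 3 lower in GSC. The shares of all tested genes were 17.2% higher and 9.37% lower in HFGSC, and 19.5% and 12.6% in GSC. Dcn, which encodes decorin, read 13.71 and 14.02 in HFGSC, 13.56 and 12.75 in GSC, and 5.22 and 4.93 in HF. Thy1, a surface protein of fibroblasts and also of germline stem cells, read 11.94 and 13.52 in HFGSC, 11.47 and 11.99 in GSC, and 5.00 and 5.27 in HF. Pdgfra, a growth factor receptor, read 9.62 and 10.02 in HFGSC, 9.33 and 8.11 in GSC, and 5.15 and 4.95 in HF. These 3 genes were undetected in HF and were higher in HFGSC by at least 171-fold (Dcn), 78.0-fold (Thy1) and 10.4-fold (Pdgfra), and in GSC by at least 105-fold, 38.9-fold and 4.83-fold. Vim was lower than HF in HFGSC (-2.96, adjusted p = 0.0151 by limma) and in GSC (-3.77, adjusted p = 0.00509). Sparc and Twist2 were lower in GSC (-2.31, adjusted p = 0.0273, and -3.41, adjusted p = 0.0108). Their HFGSC differences of -1.40 and -2.26 did not pass (adjusted p = 0.141 and 0.0552). Col1a1, Pdgfrb and Twist1 passed in neither comparison.

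A list for embryonic fibroblast feeders shares genes with the fibroblast list, and its summed intensity was 6379 and 17943 in HFGSC, 5205 and 6383 in GSC, and 11063 and 10136 in HF. Lum, Postn and Meox2 of that list were not detected on any array. The part of mesenchymal cells in the Hox differences was not tested. Without HFGSC replicate 2, 6 Hox genes passed as higher than HF (Hoxa5, Hoxa7, Hoxb7, Hoxc6, Hoxc9 and Hoxd8), and without HFGSC replicate 1, 7 did, Hoxa2 among them and Hoxb2 not.

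**Figure D4:**
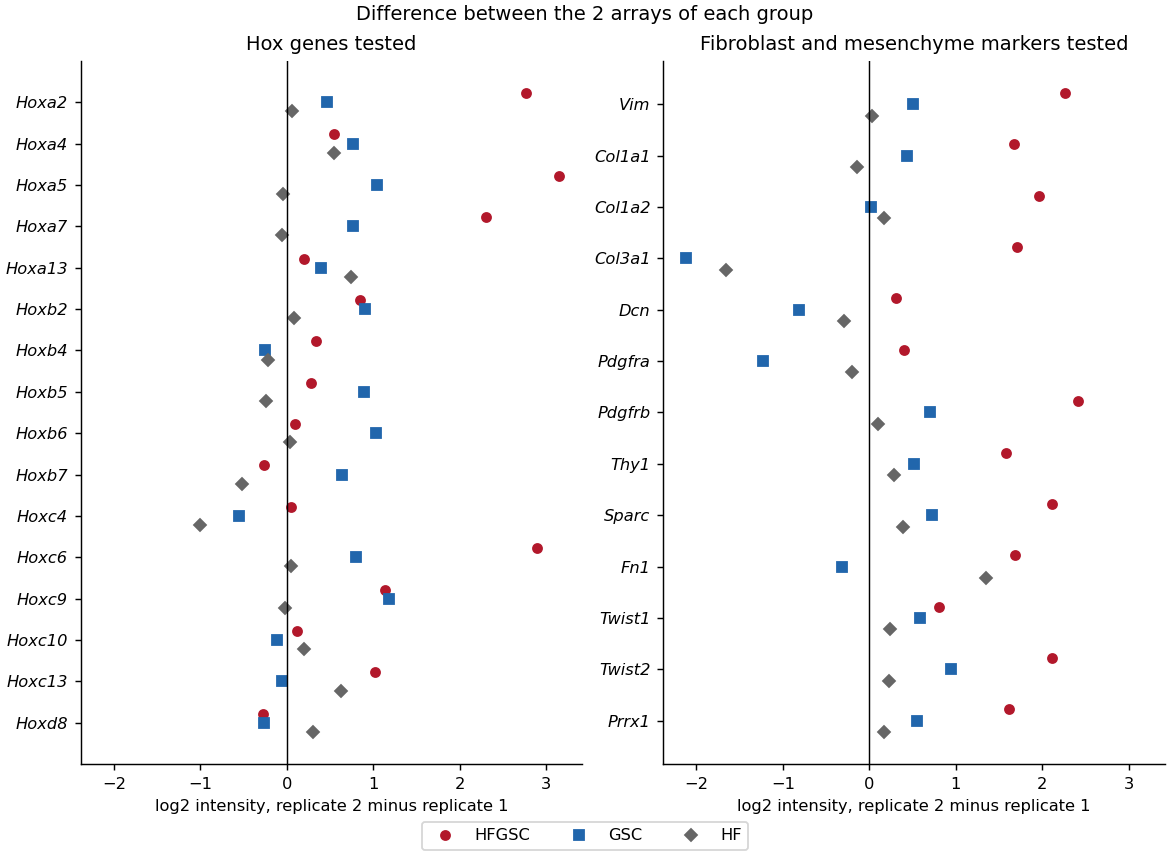
Log2 intensity of replicate 2 minus replicate 1 in HFGSC (circles), GSC (squares) and HF (diamonds), for the 16 tested Hox genes on the left and 13 fibroblast and mesenchyme markers on the right. HFGSC circles lie above 2 for Hoxa2, Hoxa5, Hoxa7 and Hoxc6 and right of 0 for all 13 markers.

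The partners that Hox proteins bind DNA with did not share a direction. Of 8 tested TALE cofactors, 1 was higher and 2 were lower in HFGSC against HF, and 1 was higher and 3 were lower in GSC against HF. Over all tested genes 17.2% were higher and 9.37% lower in HFGSC, and 19.5% and 12.6% in GSC. The median differences of the cofactors were -0.54 in HFGSC and -0.59 in GSC, beside 0.05 and 0.07 over all tested genes. Pbx4, a Pbx member known from mouse testis, read 8.83 and 8.93 in HFGSC, 8.12 and 9.02 in GSC, and 5.18 and 6.50 in HF. It rose by 3.04 in HFGSC (adjusted p = 0.0105 by limma, at least 5.40-fold) and 2.73 in GSC (adjusted p = 0.0136, at least 4.36-fold). Pbx3 read 5.99 and 6.04 in HFGSC, 6.14 and 6.35 in GSC, and 7.73 and 8.11 in HF, and was lower in HFGSC (-1.90, adjusted p = 0.00875) and in GSC (-1.67, adjusted p = 0.0123). Meis3 was lower in HFGSC (-1.62, adjusted p = 0.0112, at least 2.51-fold) and in GSC (-1.73, adjusted p = 0.00741, at least 2.48-fold). Meis2 was lower in GSC (-1.70, adjusted p = 0.0468), and its HFGSC difference of -1.22 did not pass (adjusted p = 0.137). Meis1, named here after its values were seen, read 8.96 and 11.18 in HFGSC, 9.08 and 9.10 in GSC, and 10.05 and 9.74 in HF, so HFGSC replicate 2 was the highest array for it too.

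Of the homeobox genes upstream of or related to the clusters, few were above background. Cdx1, an activator of Hox genes in the embryo, read 5.76 and 6.08 in HFGSC, 6.21 and 5.44 in GSC, and 6.93 and 7.01 in HF. It was lower in GSC (-1.14, adjusted p = 0.0471 by limma), and in HFGSC the difference of -1.05 did not pass (adjusted p = 0.0716). Pdx1, a ParaHox gene of the pancreas, read 8.28 and 7.17 in HFGSC, 6.56 and 7.55 in GSC, and 5.10 and 4.92 in HF. It rose by 2.71 in HFGSC (adjusted p = 0.00811, at least 2.42-fold) and 2.04 in GSC (adjusted p = 0.0207, at least 1.52-fold). Gsx1, Gsx2, Evx1 and Evx2 were not detected on any array, although Evx1 and Evx2 lie at the ends of the Hoxa and Hoxd clusters.

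Of the silencing machinery, Polycomb repressive complex 1 had calls and Polycomb repressive complex 2 had none. Of 9 tested genes of Polycomb repressive complex 2, which methylates histone H3, none passed in either comparison by limma, and at an unadjusted p under 0.05 there was 1 lower in HFGSC and 0 in GSC. The median differences were -0.38 in HFGSC and 0.27 in GSC. Of 17 tested genes of Polycomb repressive complex 1, which ubiquitinates histone H2A and compacts chromatin, 5 were higher in HFGSC and 7 in GSC, and none was lower. Over all tested genes 17.2% were higher and 9.37% lower in HFGSC, and 19.5% and 12.6% in GSC. The medians of the list were 0.50 and 0.53. The difference between the complexes was not tested. Kdm2b, which brings a form of this complex to CpG islands, read 13 and 12.76 in HFGSC, 12.16 and 12.32 in GSC, and 9.85 and 10.07 in HF. Its differences were 2.92 in HFGSC (adjusted p = 0.000779) and 2.28 in GSC (adjusted p = 0.00172). Cbx2, a subunit also needed for testis formation, read 10.21 and 10.30 in HFGSC, 10.18 and 11.09 in GSC, and 7.21 and 7.78 in HF, and rose by 2.76 (adjusted p = 0.00810) and 3.14 (adjusted p = 0.00425). The core subunit Phc1 rose by 2.27 in HFGSC and 1.52 in GSC, and Pcgf5 by 1.40 and 1.63.

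Of 12 tested MLL and Trithorax genes, which keep Hox genes active, 2 were higher in HFGSC and 2 in GSC, and none was lower, with medians of 0.61 and 0.83. These counts were near the shares of all tested genes called higher, 17.2% in HFGSC and 19.5% in GSC. The genes were Kmt2b, a histone H3 lysine methyltransferase (1.64 in HFGSC, adjusted p = 0.00831 by limma; 1.63 in GSC, adjusted p = 0.00729), and Wdr5, a core subunit (1.42, adjusted p = 0.0118; 1.62, adjusted p = 0.00626). Of 10 tested genes of retinoic acid supply, breakdown and receptors, 4 were higher in each comparison and none was lower, with medians of 0.43 in HFGSC and 0.27 in GSC. Of the 14 on the array, 10 were detected on both arrays of HFGSC, 8 in GSC and 3 in HF. The 4 called genes, Crabp1, Crabp2, Aldh1a2 and Aldh1a3, were undetected in HF and entered the test through the stem cell groups. These counts therefore lean upwards by construction. Crabp1, which binds retinoic acid in the cytoplasm, read 10.26 and 9.98 in HFGSC, 11.26 and 11.95 in GSC, and 4.80 and 4.90 in HF. Its differences were 5.27 in HFGSC (adjusted p = 0.000552, at least 12.8-fold) and 6.75 in GSC (adjusted p = 0.000228, at least 35.7-fold). The second binding protein, Crabp2, rose by 2.91 and 3.03, at least 4.64-fold and 5.06-fold. Of the enzymes that make retinoic acid, Aldh1a3 rose by 3.78 and 4.15 and Aldh1a2 by 1.55 and 2.36. The folds were at least 5.41 and 7 for Aldh1a3, and at least 1.96 and 3.44 for Aldh1a2. The receptors Rarb and Rxrg and the degrading enzyme Cyp26b1 were not detected on any array.

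**Figure D5:**
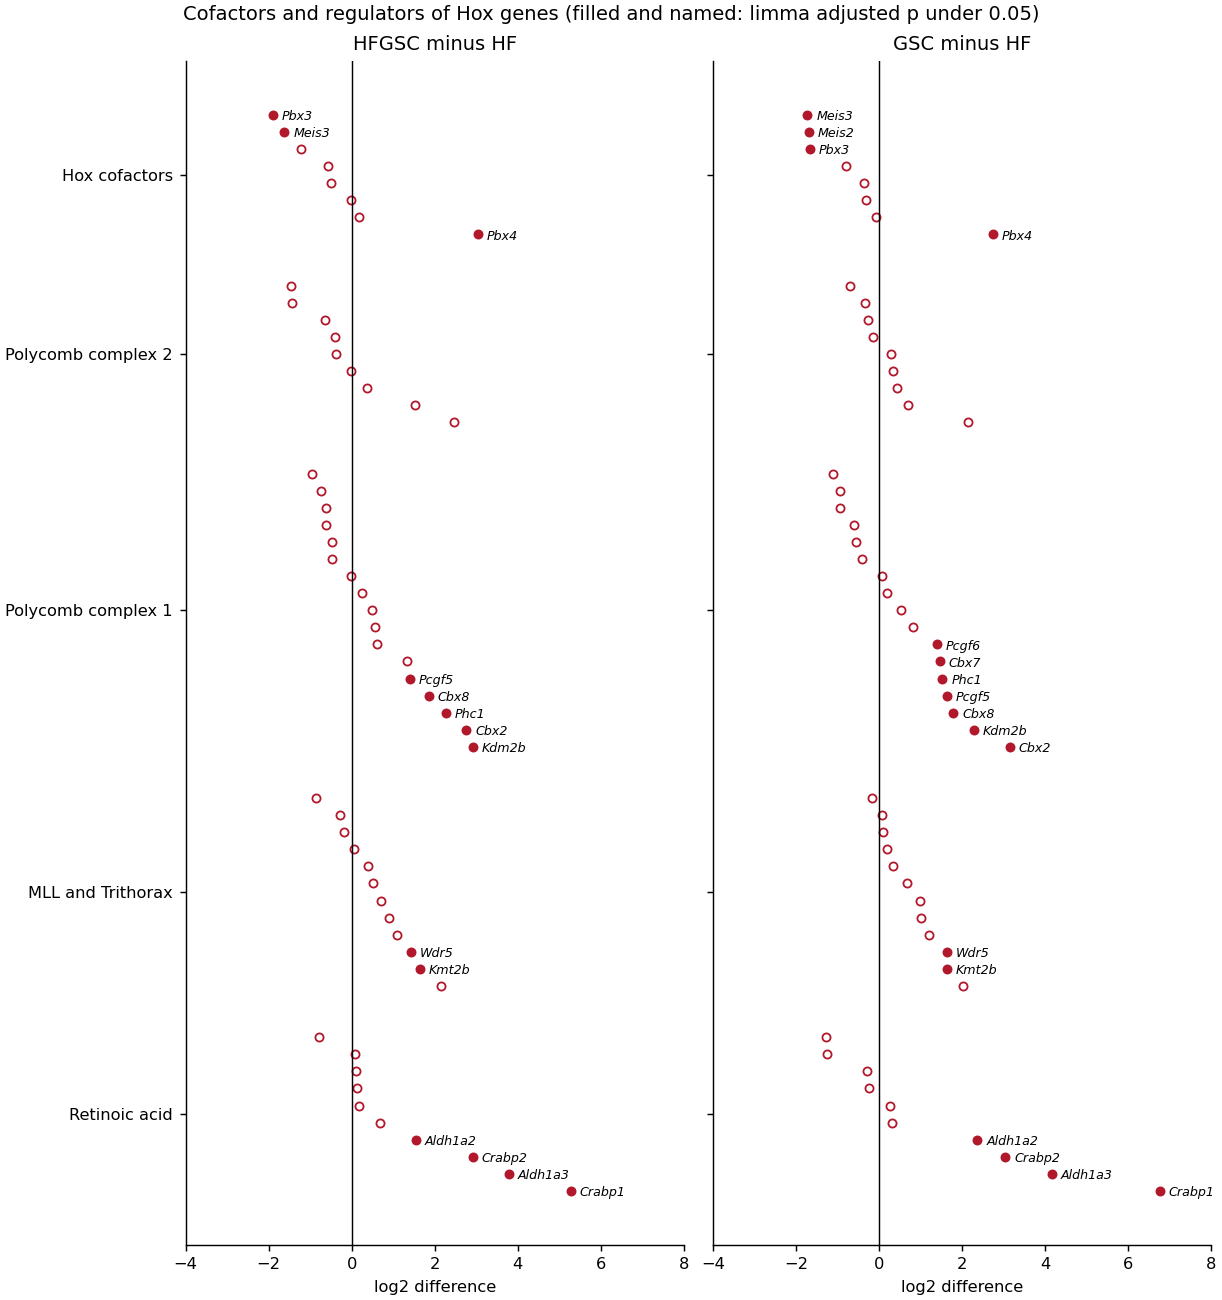
Log2 differences of tested cofactors and regulators of Hox genes for HFGSC minus HF on the left and GSC minus HF on the right, 1 point per gene, sorted within each list. Filled and named points passed at an adjusted p under 0.05. Filled points lie on both sides of 0 among the cofactors, are missing from Polycomb complex 2, and lie right of 0 for Polycomb complex 1, MLL and Trithorax, and retinoic acid genes; Cdx1, called lower in GSC, is not plotted.

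A list of genes named as neighbours of the clusters was read as well. In the RefSeq gene order, Skap1, Skap2, Evx1, Evx2, Ttll6, Calcoco1, Smug1 and Mtx2 lie directly next to a cluster. Other genes of the list, Tax1bp3 and Hibadh among them, do not. Of all tested genes 26.5% passed in HFGSC against HF and 32.1% in GSC against HF. Of 10 tested genes of the list, 1 was higher in HFGSC against HF (Skap2 at the Hoxa cluster, 1.17, adjusted p = 0.0261 by limma) and 1 was lower in GSC (Hibadh, -0.72, adjusted p = 0.0474). A departure from the shares of all genes was not tested. The median differences of the list were -0.12 in HFGSC and -0.09 in GSC. Calcoco1, next to Hoxc13, was at 1.77 in HFGSC (adjusted p = 0.0609), which did not pass. Of the non-coding RNAs of the clusters, Hottip and Hoxd3os1 had probes, and neither was detected on any array. Between HFGSC and GSC no cofactor, regulator or neighbour in these lists passed by limma, and at an unadjusted p under 0.05 there was 1 higher in the Polycomb repressive complex 1 list (Phc1) and 1 lower in the retinoic acid list (Crabp1).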

How the data were processed

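Total RNA was amplified to biotin-labelled cRNA, per the labels' protocols. The deposited intensity values are unnormalized linear bead summaries for each probe, and each stands beside a deposited detection p-value, per the file headers. The other deposited table gives log2 values after quantile normalization by the authors: every column has a median of 7.046 and lies within 0.148 of quantile-normalized log2 intensities. It is uncentred and was used as an alternative. Per the submitters' processing notes, the tools were GenomeStudio 2011.1 and R 3.0.2. All 6 columns were mapped by sample title.

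In R 4.3.3, the neqc function of limma 3.58.1 corrected background (estimated through the detection p-values, offset 16), normalized quantiles and took log2. A probe had to reach a detection p under 0.05 on each array of some group, and a gene was represented by its brightest such probe on average. Of 45281 probes, the platform annotation gave 34885 with 1 symbol, 18 with several and 10378 with none, and 34807 matched RefSeq of GRCm38.p6, with 0 symbols changed. Linear models on all 6 arrays shared 1 spread with 3 residual degrees of freedom, moderated with a mean-variance trend, and Benjamini-Hochberg adjustment ran over 10913 genes. An exact test of 2 against 2 arrays cannot go below a two-sided p of 0.333. Array mean intensities were 911 to 1149, and 18907 to 19552 probes were detected in HFGSC, 18772 to 19476 in GSC and 16094 to 16593 in HF; the number of arrays limits the precision. Levels are not compared between probes.

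In simulated data (10913 genes, 200 changed, 20 draws), the HFGSC against HF test recovered 3.6% of 2-fold, 43.2% of 4-fold, 86.4% of 8-fold and 97.9% of 16-fold changes, and 6.93% of its calls were false. The real comparison called 2896 genes, far more than were changed in the simulation. Recovery after adjustment depends on the share of changed genes, so these rates need not hold for the real comparison. The members, lists and alternatives were chosen with earlier results of these data known. Every member may be named, with array values for the 16 detected on both arrays of a group, and each other list gives at most 4 names per comparison, by smallest adjusted p, or its only detected member. Marker genes were named to show cell content.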

Additional observations from a re-analysis of the deposited data

Results flagged for a closer look

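Signal also appeared in Hox probes that the comparisons did not use, above both HF arrays. The second probe of Hoxa2 read 6.44 and 9.52 in HFGSC, 6.51 and 7.17 in GSC, and 4.84 and 4.86 in HF on the log2 scale, with its highest value on HFGSC replicate 2, as in the probe tested. The second probe of Hoxb7 read 6.91 and 6.71 in HFGSC, 9.82 and 10.33 in GSC, and 4.79 and 4.87 in HF, in the same order of groups as the probe tested. The second probe of Hoxc10 was detected on GSC replicate 2 alone, at 6.06, while the tested probe was detected on all 6 arrays. Hoxd10 was detected on HFGSC replicate 2 alone, at 7.25, and so entered no test.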

How the results depend on the processing

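Over 15 alternatives, 711 values of tested Hox genes were recomputed: 648 stayed on their side of the threshold, 51 lost a call, 12 gained one, no called value turned its sign and 19 values without a call did. Of 2 Hox genes called in HFGSC against GSC, 0 were called with the authors' values, an offset of 50, no variance trend or only the 2 groups compared, 1 without the filter, and 0 to 1 when 1 array was left out. Of 7 in GSC against HF, 4 were called with an offset of 50 and 4 to 9 when 1 array was left out (4 without GSC replicate 2, HF replicate 1 or HF replicate 2). Of 7 in HFGSC against HF, 3 to 7 were called when 1 array was left out (4 without HF replicate 1, 3 without HF replicate 2). Hox genes detected in HF numbered 3, and 1 at a detection p of 0.01. All genes called numbered 2896 in HFGSC against HF (1371 to 2860 with 1 array left out), 3501 in GSC against HF (1699 to 3876) and 48 in HFGSC against GSC (0 to 54, 13 without a variance trend, 5 with only the 2 groups). Where 1 array was left out, the lone array of a group was assumed to vary like the others. The median difference of all genes in GSC against HF was 0.07, against 0.16 with median scaling and -0.05 with the authors' values. The replicate numbers are tied to nothing in the labels. Across genes, the difference of replicate 2 from replicate 1 correlated between groups at 0.436 (HFGSC and HF), 0.757 (GSC and HF) and 0.58 (HFGSC and GSC), a hint from the data and not from the design. With the number as a replicate block, 5122, 5669 and 174 genes were called in HFGSC against HF, GSC against HF and HFGSC against GSC, and 9, 8 and 3 Hox genes, adding Hoxa2 and Hoxc13, then Hoxa7, then Hoxb7. Causes were not tested. Low Hox signals limit detection, more so in HF.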
